A study of Bos taurus with 6 samples.

Results

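Besides the annotated genes, the table of genes of this bovine testis study holds loci that were assembled from the sequencing reads and carry a locus number (XLOC) in place of a gene identifier. Of the 19642 assembled loci, 5102 overlapped the position of at least 1 Ensembl gene by 1 base or more, whatever the strand, and these 5102 of the 47249 rows of the table are described here, each beside the gene it overlapped. The remaining 14540 assembled loci lay outside every Ensembl gene. Total RNA of testes depleted of ribosomal RNA had been sequenced from immature calves (3 animals, 3 months old) and mature bulls (3 animals, 3 years old) of Wandong cattle. All were untreated and each gave 1 library, so the groups compared differ in age and sexual maturity. The values are FPKM, fragments scaled by the length of the transcript and by the size of the library, and no counts were used. A whole testis holds germ cells beside Sertoli, Leydig and other somatic cells, and in such bulk samples fewer cells of a type and less RNA per cell cannot be told apart.

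Transcription units overlap at many places in animal genomes. A second transcript can run antisense to a gene, start within an intron, leave the same promoter region in the other direction, or be the long primary transcript from which microRNAs and small nucleolar RNAs are cut. The adult testis, rich in meiotic spermatocytes and haploid spermatids, is known for transcribing much of the genome outside annotated genes. An assembled locus beside a gene may also hold exons or ends of that gene which the annotation lacks. The tables give start and end positions but neither strand nor exons, so sense and antisense loci could not be separated, a locus inside a gene could not be placed in an exon or an intron, and reads from a stretch shared by locus and gene cannot be told apart. Positions are given as in the deposited table, whose scaffold names belong to an ARS-UCD assembly.

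The library labelled calf 3 stood apart from the other 5 and is treated with caution throughout. The summed FPKM of 6 Sertoli cell markers was 1786 and 1456 in calves 1 and 2, 117 to 148 in the bulls and 14.8 in calf 3, where FSHR, GATA4 and WT1 were listed at 0. The 6 Leydig cell rows, 3 of them CYP17A1, summed to 0.449 in calf 3, where 4 were at 0, and to at least 1126 in every other library. The 2 germ cell markers summed to 0.0152 in calf 3 against 39.6 and 49.3 in the other calves. A list of 5 oligodendrocyte, astrocyte and neuron markers summed to 13187 in calf 3 and to 4.59 to 7.0 in the other 5 libraries, with all 5 genes at 1 FPKM or more. Of the 6 Sertoli markers 1 reached 1 FPKM in this library, and no Leydig or germ cell marker did. Among the overlapping loci, 253 (4.96%) reached at least 1 FPKM and 4 times both other calves in calf 3, against 5.37% of all rows, and 118 (2.31%, against 3.88% of all rows) reached 1 FPKM in both other calves but at most 1 in 4 of either level in calf 3. Whether this library is labelled correctly was not tested, and every calf mean includes it unless stated. Values without it are given beside the counts of calls and many of the named results.

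The overlapping loci formed 8559 pairs with 5985 Ensembl genes. In 4042 pairs (47.2%) the locus spanned the whole gene, in 2228 (26.0%) it lay inside the gene, and in 2289 (26.7%) the ends were staggered. Most loci, 3233, touched 1 gene, whereas 697 touched 3 or more, up to the 54 genes under XLOC_124746 in an imprinted cluster on chromosome 21. Ensembl genes with no symbol were overlapped most often, 3183 of 7080 (45.0%), against 2138 of 16855 genes with a symbol (12.7%), 513 of 2769 genes of Rfam families of structured RNAs (18.5%) and 151 of 903 microRNA genes (16.7%). The overlapping loci were longer than the other assembled loci, with a median span of 18387 against 6893 bases, and 39.8% of them held a transcript named LINC, against 88.8% outside Ensembl genes. The rows of genes had themselves been lengthened by assembled transcripts. In 2287 of the 8559 pairs the locus reached only such assembled transcripts of the gene and no Ensembl transcript, a distinction that recurs in the named pairs.

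More of these loci were detected in bulls. At least 1 FPKM was reached by 561, 592 and 785 loci in calves 1 to 3 and by 1452, 1540 and 1627 loci in the bulls, so that the groups did not overlap (646 ± 121 against 1540 ± 87.5, SD, n = 3, two-sided exact permutation p = 0.1, which 3 against 3 cannot go below). That is 11.0% to 15.4% of the loci in calves and 28.5% to 31.9% in bulls, beside 30.3% to 31.7% and 37.8% to 40.2% of all rows. The share of the summed FPKM held by the loci was 0.942%, 1.60% and 2.38% in calves and 2.15%, 2.19% and 2.56% in bulls. These shares overlapped and the exact permutation test gave p = 0.3. A single locus, XLOC_155856, held 46.1% to 65.0% of their FPKM in calves and 25.9% to 30.2% in bulls. Without it the share was 0.664% ± 0.226 in calves and 1.65% ± 0.128 in bulls (SD, n = 3, exact permutation p = 0.1). With genes of small RNA families left out of the total instead, the share was 4.18% ± 1.05 in calves and 4.10% ± 0.269 in bulls (SD, n = 3, exact permutation p = 1), which turns the direction.

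**Figure D1:**
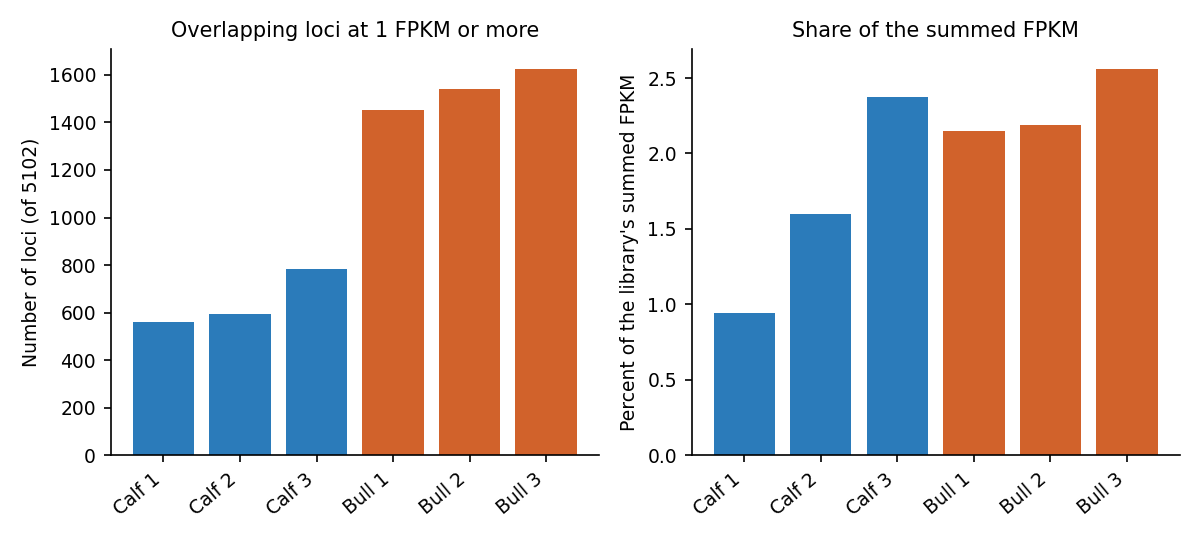
Bars give, for each library, the number of overlapping loci at 1 FPKM or more (left, of 5102) and their percent of the summed FPKM (right), with calves in blue and bulls in orange. All 3 bulls lie above all 3 calves in the number of loci, 1452 to 1627 against 561 to 785, whereas the shares of calf 3 and of the bulls lie close together, at 2.15% to 2.56%.

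Of the 5102 loci, 1350 reached 1 FPKM in at least 3 of the 6 libraries and were tested with limma on log2(FPKM + 1), with the adjustment over all 18115 rows tested. A locus is called here where the adjusted p was under 0.05 and the log2 fold change was 1 or more in either direction. Called were 865 loci (64.1%), 816 higher and 49 lower in bulls, where 45.3% of all rows tested were called, 35.7% higher and 9.61% lower. Without calf 3 the loci called numbered 896 (834 higher, 62 lower), beside 51.5% of all rows. Bulls lay above all calves at 936 loci and calves above all bulls at 118, so that the groups did not overlap at 1054 of 1350, beside 67.4% of all rows. The filter shapes these shares. For 732 of the 1350 loci no calf reached 1 FPKM, so that they passed through the bulls alone, and 671 of those were called higher, or 91.7% beside 95.0% of all such rows. Among the 580 loci with at least 1 library of each group at 1 FPKM, 145 were called higher and 30 lower, or 30.2% beside 32.0% of all such rows. With no filter, 976 of 5089 loci were called, 19.2% beside 19.2% of all rows.

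The direction also depended on the scaling. After quantile normalization 613 loci were called higher and 120 lower, so that the higher calls made up 83.6% of the calls in place of 94.3%. Over all rows the share of higher calls went from 78.8% to 54.5%, and 54.3% of the loci beside 47.5% of all rows were called. The same normalization moved the median log2 fold change of all rows from 0.43 to -0.13 and that of the loci from 1.38 to 0.91. These medians are over rows that passed the filter, most of the loci through bulls alone. With no filter the medians were 0.23 for the loci and 0.12 for all rows.

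Of the 5 loci with the largest increase, all but XLOC_129370 stayed under 0.1 FPKM in every calf. XLOC_093771 (chromosome 18, 46256233 to 46257256) lay at 0, 0.0329 and 0 FPKM in calves and at 105, 122 and 155 FPKM in bulls, a log2 fold change of 6.97 ± 0.19 (SE, adjusted p = 4.1e-06), while the gene under it, ENSBTAG00000053018, was listed at 0 in all 6 libraries. XLOC_229674 (chromosome 8, 7269982 to 7338273) spanned 3 genes with no symbol between GLRA3, a glycine receptor subunit gene, and the beta-defensin gene DEFB134. It rose from at most 0.0707 FPKM to 113, 139.8 and 132 FPKM, and all 3 genes rose with it, ENSBTAG00000035768 to 34.8, 48.4 and 44.3 FPKM. XLOC_201552 (chromosome 5, 31940936 to 31960241) rose from at most 0.0484 to 80.2, 95.5 and 139 FPKM over 2 genes that stayed under 1 FPKM in every library. XLOC_255806, on an unplaced scaffold, rose to 46.8, 160.3 and 134 FPKM, and 6 of its 7 transcripts were named LINC. XLOC_129370 (chromosome 22, 7287411 to 7303121), inside the row of ENSBTAG00000052446, was at 2.79, 3.05 and 0 FPKM in calves and 174, 305 and 217 FPKM in bulls, while its gene reached only 2.17 to 5.20 FPKM. The difference of both log2 fold changes, tested within each library, was 4.56 ± 0.62 (SE, adjusted p = 0.0017). The groups were apart at these 5 loci by the way they were chosen, and all 5 were also called higher without calf 3. All but XLOC_129370 passed the filter through bulls alone, and 95.0% of all rows that passed in this way were called.

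The loci with the largest decrease were fewer and more varied. XLOC_195281 (chromosome 5, 22470723 to 22474338) was among the most abundant of all, at 264, 412 and 906 FPKM in calves and 5.92, 59.1 and 7.98 FPKM in bulls, a log2 fold change of -4.90 ± 0.92 (SE, adjusted p = 0.0051). It starts at the same base as ENSBTAG00000052187, a row of which it covers all 3267 bases. That gene was at 0.375 and 0.202 FPKM in calves 1 and 2 but at 588 FPKM in calf 3, and at 26.1, 0.0456 and 44.2 FPKM in bulls, so that the gene was above the locus in bulls 1 and 3 and far below it in bull 2. Without calf 3 the log2 fold change of the locus was -4.41. The difference of the locus from this gene was not called (-5.03 ± 2.97, SE, adjusted p = 0.21), nor was it without calf 3 (-7.49, adjusted p = 0.051). XLOC_200841 covers nearly the same stretch and went from 5.85, 11.7 and 26.6 FPKM to 1.17, 0 and 2.30 FPKM (log2 fold change -2.80, and -2.27 without calf 3). XLOC_185682 (chromosome 4, 85373299 to 85380893), between TSPAN12 and ING3, was even among calves at 48.1, 60.0 and 55.2 FPKM and lay at 0.963, 8.39 and 3.83 FPKM in bulls (log2 fold change -3.63, and -3.62 without calf 3).

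XLOC_219409 (chromosome 7, 62874454 to 62897959) covered nearly all of SPARC, which encodes a secreted glycoprotein of the extracellular matrix. Locus and gene fell together. The locus was at 64.0, 60.4 and 27.0 FPKM in calves and 5.64, 6.77 and 8.76 FPKM in bulls, and SPARC at 1495, 1198 and 511 FPKM against 107, 108 and 133 FPKM. Their difference of 0.46 ± 0.19 on the log2 scale was not called (adjusted p = 0.097). Without calf 3 it was 0.53 (adjusted p = 0.030), under the fold asked for. XLOC_069589 (chromosome 15, 48849549 to 48948187) spanned the olfactory receptor gene OR51A7 and 6 other genes, none of which reached 0.1 FPKM. It was at 24.4, 26.8 and 6.11 FPKM in calves and 2.37, 2.59 and 2.84 FPKM in bulls, a call that was lost without bull 1 (log2 fold change -2.21, adjusted p = 0.054).

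**Figure D2:**
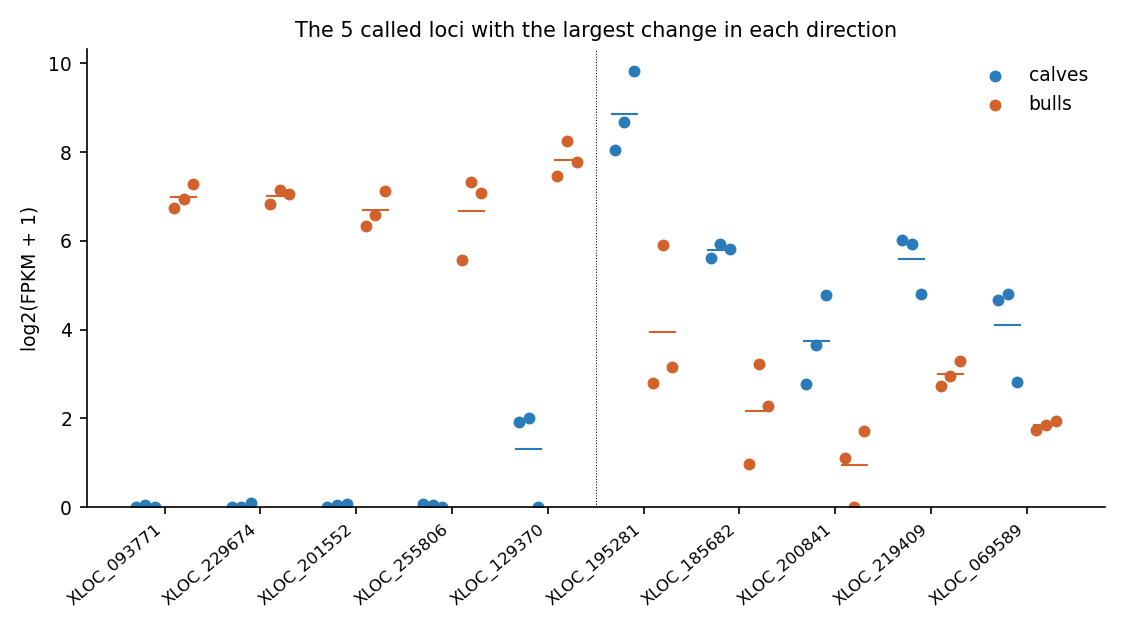
Each point is a library's log2(FPKM + 1) at the 5 called loci with the largest increase (left of the dotted line) and the 5 with the largest decrease, calves in blue and bulls in orange, in the order 1 to 3 from left to right, with bars at the group means. The first 4 loci lie near 0 in every calf, whereas the loci on the right keep measurable levels in most bulls.

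In 1303 pairs both locus and gene passed the filter, with 901 loci and 1143 genes. The levels of the loci were mostly below those of their genes. The median log2 ratio of locus to gene was -1.21 in calves and -0.82 in bulls, and the locus stood above the gene in 22.3% and 33.4% of the pairs. Both partners were called in the same direction in 379 pairs (29.1%) and in opposite directions in 37, the locus alone was called in 308, the gene alone in 148 and neither in 431. Without calf 3 these were 435, 51, 300, 179 and 338 pairs. How often each class occurred among all overlapping pairs of rows was not counted, so no class is read as particular to these loci. Across the pairs, which share libraries and in part loci or genes, both log2 fold changes had a Pearson correlation of 0.409, and 924 of the 1303 had the same sign. A difference between the fold changes was called in 535 pairs (41.1%), 346 with the larger value in the locus and 189 with the larger value in the gene, beside 43.4% of all overlapping pairs of rows in the table and 44.3% of those other than a locus with a gene. Without calf 3 it was called in 608 pairs, beside 51.3% of all overlapping pairs. The share among the loci and their genes thus lay near that of overlapping rows in general.

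A called locus alone does not show that the gene stayed level. In 94 of the 308 pairs in which only the locus was called, the difference between both was not called. For 317 of the 865 called loci (36.6%) every overlapped gene failed the filter and no difference could be tested. Pairs in which the locus reached an Ensembl transcript of the gene had a called difference in 369 of 968 (38.1%), with a median of 0.25 on the log2 scale. Pairs that reached only assembled transcripts of the gene had one in 166 of 335 (49.6%), with a median of 0.76. By kind of gene, a difference was called in 347 of 793 pairs with a symbol, 164 of 424 with no symbol, 17 of 71 of Rfam families and 7 of 15 with a microRNA gene.

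**Figure D3:**
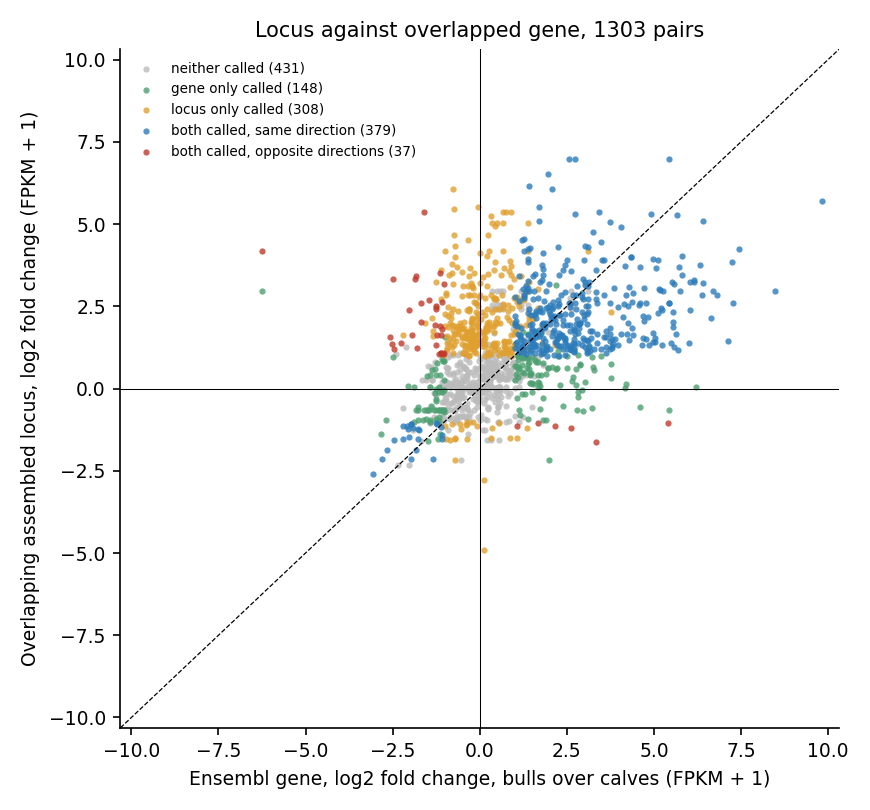
Each point is 1 of the 1303 pairs, with the log2 fold change of the Ensembl gene on the x axis and of the assembled locus on the y axis (bulls over calves, FPKM + 1), coloured by which partner was called, and the dashed line marks equal change. The 308 pairs in which the locus alone was called lie mostly above the horizontal line, and the 37 opposite pairs lie mostly in the upper left.

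The 37 opposite pairs held 33 loci, and in 31 pairs the locus rose in bulls while the gene fell. The widest gap was on chromosome 23, where XLOC_136994 (30995860 to 31002870) covered the whole of a core histone gene, H2B, 381 bases long. The locus was at 20.4, 10.6 and 0.00176 FPKM in calves and 147, 99.2 and 98.4 FPKM in bulls. H2B was at 355, 256 and 7.40 FPKM in calves and 0.177 to 0.226 FPKM in bulls. Here calf 3 had the lowest calf value of both partners. Histone genes have near-identical copies, and reads shared with them may have been split between rows, which was not tested. The difference was 10.44 ± 0.41 (SE, adjusted p = 4.2e-05) and 10.83 without calf 3. The rise of the locus itself, 4.17 with an adjusted p of 0.021, was not called when bull 1, 2 or 3 was left out (3.98 to 4.27, adjusted p = 0.064 to 0.077) and was called at 2.85 without calf 3 (adjusted p = 0.00026). XLOC_139735, which spans the same gene, gave a difference of 9.23 ± 0.43. The rise of this locus was not called, except without calf 1 or calf 3, so it is not among the opposite pairs.

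XLOC_038384 (chromosome 12, 29564429 to 29774503) overlapped 116372 bases of the Ensembl transcript of B3GLCT, which encodes a glucosyltransferase acting on thrombospondin repeats. The locus was at 0.00618, 0.200 and 0.0705 FPKM in calves and 10.1, 6.69 and 14.0 FPKM in bulls. B3GLCT was at 22.2, 11.9 and 16.1 FPKM in calves and 1.93, 2.03 and 2.25 FPKM in bulls, so that neither pair of groups overlapped. The difference was 5.81 ± 0.37 (SE, adjusted p = 9.8e-05). The row of bta-mir-2299, under the same locus, fell as B3GLCT did, from 3.77 to 7.40 FPKM down to 0.599 to 0.639 FPKM. XLOC_251263 (chromosome 9, 87746366 to 87753202), with 3 LINC transcripts, lay in the row of PLEKHG1, but only in assembled transcripts of it. It rose from at most 0.169 FPKM to 2.62, 6.84 and 4.92 FPKM, while PLEKHG1 went from 8.90, 8.09 and 30.4 FPKM to 2.13, 2.78 and 2.41 FPKM. The highest calf value of PLEKHG1 was that of calf 3, and without it the difference was 3.91 instead of 4.42.

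Among the other pairs with the largest differences, XLOC_240771 (chromosome 8, 103834297 to 103852018), 10 of whose 11 transcripts were named LINC, was at 0.208, 0.297 and 0 FPKM in calves and 85.6, 75.8 and 71.8 FPKM in bulls. TMEM268, a gene for a transmembrane protein, whose assembled transcripts it reached, was at 2.71, 3.37 and 1.99 FPKM against 0.644, 0.704 and 2.41 FPKM, overlapping between the groups and not called. The difference was 6.86 ± 0.38 (SE, adjusted p = 6.4e-05). XLOC_046468 (chromosome 13, 12073209 to 12081902), with 5 LINC transcripts, was listed at 0 in all 3 calves and at 54.7, 36.1 and 40.6 FPKM in bulls. It lay within an assembled transcript of CAMK1D, a calcium/calmodulin-dependent kinase gene, which was at 6.36 to 10.7 FPKM in calves and 3.47 to 5.17 FPKM in bulls and was not called. With quantile normalization TMEM268 and CAMK1D were called lower in bulls. XLOC_019713 (chromosome 10, 79474770 to 79480064) rose from at most 0.0483 FPKM to 46.5, 46.0 and 33.5 FPKM, while ENSBTAG00000054736 under it fell from 1.77, 3.01 and 1.45 FPKM to at most 0.0014 FPKM.

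At other places the log2 fold change of the gene was above that of the locus. XLOC_187990 (chromosome 4, 9889410 to 9926242) was called lower in bulls, at 3.87, 3.89 and 3.78 FPKM in calves and 1.42, 1.33 and 1.32 FPKM in bulls. ENSBTAG00000003810 rose from at most 0.0572 FPKM to 40.4, 41.6 and 45.7 FPKM, which gave a difference of -6.43 ± 0.17 (SE, adjusted p = 3.3e-05). XLOC_048764 (chromosome 13, 60981163 to 61064435) spanned beta-defensin genes, members of a family of secreted antimicrobial peptides. DEFB122A was at 0.181, 0 and 0 FPKM in calves and 450.1, 381 and 316 FPKM in bulls, and the locus was listed at 0 in every calf and at 8.90, 6.10 and 5.84 FPKM in bulls. XLOC_077510 (chromosome 16, 45113081 to 45128184) rose to 1.69, 1.66 and 2.19 FPKM over ENSBTAG00000053468, which was listed at 0 in calves and at 119, 149 and 147 FPKM in bulls. XLOC_238784 (chromosome 8, 64387210 to 64870441) overlapped between the groups, at 0.964, 1.34 and 3.1 FPKM in calves and 2.05, 1.68 and 1.48 FPKM in bulls, while ENSBTAG00000019143 within it rose from at most 0.843 FPKM to 111, 114 and 96.5 FPKM.

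**Figure D4:**
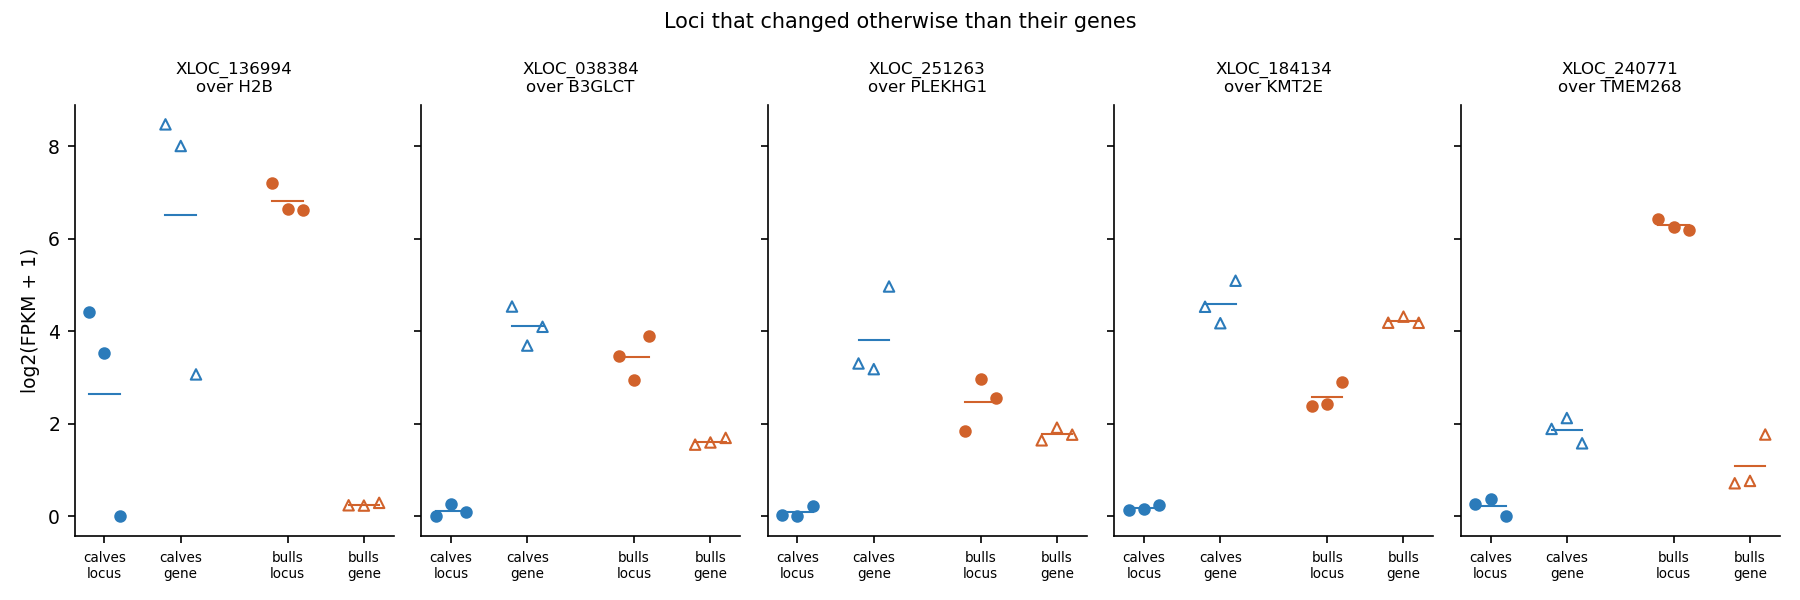
For 5 pairs, filled circles give log2(FPKM + 1) of the assembled locus and open triangles that of the overlapped gene in calves (blue) and bulls (orange), libraries 1 to 3 from left to right, with bars at the means. In each panel the locus lies higher in every bull than in every calf, whereas H2B, B3GLCT and PLEKHG1 fell and KMT2E and TMEM268 were not called on the scale shown.

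Imprinted genes are expressed from the allele of one parent, and their clusters are known for long noncoding and antisense transcripts. Of 26 imprinted genes listed, 18 were in the table and 4 were overlapped, GNAS, NNAT, PEG3 and RTL1, by 5 loci that all passed the filter. Of these, 2 were called higher and 2 lower in bulls, where 35.7% of all rows tested were called higher and 9.61% lower. GNAS, the gene for the stimulatory G protein alpha subunit, carried a locus of each kind. XLOC_048543 (chromosome 13, 57521788 to 57551576), over 1 end of the row, was at 1.22, 0.429 and 0.406 FPKM in calves and 21.1, 15.5 and 14.4 FPKM in bulls. XLOC_048541 (57461951 to 57486340), over the other end, was at 8.94, 8.33 and 17.4 FPKM in calves and 2.02, 2.15 and 2.65 FPKM in bulls. The GNAS row that both reach was at 7.77, 5.82 and 22.1 FPKM against 1.94, 1.86 and 2.74 FPKM. The first locus thus moved against GNAS (difference 5.25 ± 0.59, adjusted p = 0.0008, and 4.61 without calf 3), while the difference of the other was -0.06 ± 0.25 (adjusted p = 0.87). Under XLOC_048543 the row of bta-mir-6123 rose from 0.482, 0.363 and 0 FPKM to 1.52, 1.46 and 2.40 FPKM. A further row named GNAS under XLOC_048541 fell from 278 to 564 FPKM to 54.7 to 59.6 FPKM.

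XLOC_091124 (chromosome 18, 64099216 to 64363565) spanned PEG3, the paternally expressed gene for a zinc finger protein. It rose from 1.65, 1.96 and 2.13 FPKM to 5.94, 6.44 and 7.04 FPKM, while PEG3 fell from 12.8, 14.9 and 24.7 FPKM to 1.77, 2.57 and 2.11 FPKM. The difference was 3.86 ± 0.25 (SE, adjusted p = 0.00011) and 3.65 without calf 3. TCONS_00133448 and TCONS_00133449, the transcripts of the locus that reached PEG3, were at 0.472, 0.0807 and 1.40 FPKM and 0.286, 0.976 and 0.432 FPKM in calves. In bulls they were at 0.163, 0.240 and 0 FPKM and 0.000661, 0.00527 and 0.255 FPKM. The other transcripts of the locus started at 64121126 or later, beyond the last base of PEG3 (64118980), so the rise lay outside PEG3. After quantile normalization the rise of the locus, 0.85 in place of 1.36, no longer reached the fold asked for. XLOC_049074 (chromosome 13, 66461409 to 66494367), around the gene of the membrane proteolipid neuronatin, NNAT, was at 0.473, 0.357 and 0.968 FPKM in calves and 1.70, 1.32 and 1.52 FPKM in bulls, under the fold asked for. NNAT was at 3.34 and 3.21 FPKM in calves 1 and 2, 17.4 in calf 3 and 1.36 to 2.04 in bulls. Their difference of 2.07 was called (adjusted p = 0.014), also without calf 3 at 1.53, but not without bull 1 (1.94, adjusted p = 0.056).

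XLOC_124746 (chromosome 21, 65777965 to 65905505) lay between DLK1 and DIO3 and spanned RTL1, a gene derived from a retrotransposon, 6 microRNA genes and 44 rows of Rfam families, 39 of them RF00181, the SNORD113/SNORD114 family of small nucleolar RNAs. RefSeq places the long noncoding RNA gene MEG8 after RTL1 and before DIO3, and positions were not carried between the assemblies. The locus fell from 3.77, 2.74 and 4.49 FPKM to 0.0359, 0.0697 and 0.0585 FPKM, a log2 fold change of -2.13 ± 0.17 (SE, adjusted p = 0.00014) and -2.00 without calf 3. The 39 RF00181 rows summed to 28.6, 10.2 and 19.4 FPKM in calves and 0.597, 1.02 and 1.20 FPKM in bulls. RTL1 stayed under 0.8 FPKM in every library, and the 6 microRNA rows summed to at most 1.36 FPKM. So the locus, the sum of the RF00181 rows and RTL1 were each lower in every bull than in every calf.

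A further 2 loci were singled out after their values were seen. XLOC_167882 (chromosome 29, 49510742 to 49513379) lay between IGF2 and MRPL23, the genes between which RefSeq places the imprinted long noncoding RNA gene H19. It overlapped no gene with a symbol, only rows of the Rfam families RF01972 and RF01973 and 1 row without a symbol. The locus was at 474 and 271 FPKM in calves 1 and 2, at 0.0592 in calf 3 and at 6.68, 8.97 and 13.4 FPKM in bulls. With calf 3 it was not called (adjusted p = 0.43), and without it the log2 fold change was -5.12 ± 0.33 (SE, adjusted p = 3.5e-05). XLOC_258769 (chromosome X, 76847418 to 76937103), over bta-mir-374a, MIR374B and bta-mir-545, fell from 7.36, 5.04 and 9.34 FPKM to 0.713, 0.961 and 0.854 FPKM (log2 fold change -2.13 ± 0.24, adjusted p = 0.00055), and its 3 microRNA rows stayed under 1.5 FPKM.

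**Figure D5:**
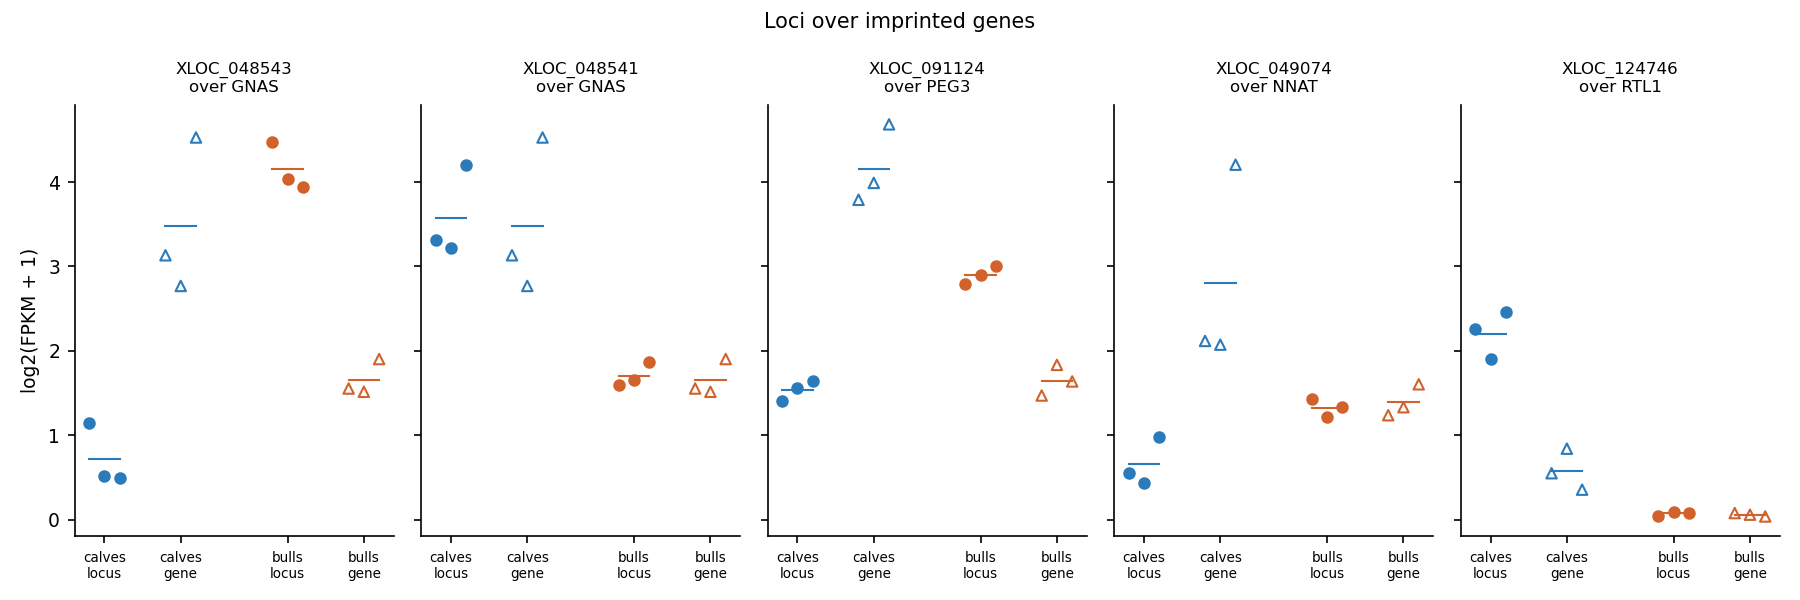
For the 5 loci over listed imprinted genes, filled circles give log2(FPKM + 1) of the locus and open triangles that of the gene, calves in blue and bulls in orange, libraries 1 to 3 from left to right, with bars at the means. XLOC_048543 and XLOC_091124 cross their genes in level, XLOC_091124 through a rise in transcripts beyond PEG3. XLOC_048541 falls with GNAS, and XLOC_124746 lies above RTL1 in every calf and near 0 in bulls.

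Of the spermatid and sperm list, 41 of 42 genes were in the table and 2 were overlapped, the genes of the axonemal tektins TEKT2 and TEKT4. XLOC_175657 (chromosome 3, 109728957 to 109759967) rose from at most 0.0822 FPKM to 7.85, 8.75 and 10.7 FPKM and spanned TEKT2, which rose from 0.679 to 1.33 FPKM up to 139, 126 and 148 FPKM. The difference was -2.91 ± 0.21 (SE, adjusted p = 0.00016), -2.82 without calf 3, and between -3.04 and -1.24 under the alternatives run. Its size depends on the scale, since log2(FPKM + 1) understates the change of low rows such as this locus. XLOC_146685 (chromosome 25, 872389 to 881558), listed at 0 in calves, reached 8.60, 8.91 and 12.4 FPKM in bulls over TEKT4 at 56.7, 58.8 and 64.0 FPKM. Of 33 meiosis genes, 8 were overlapped by 12 loci, of which 4 passed the filter and 3 were called higher, beside 35.7% of all rows tested. These 3 loci and those over TEKT2 and TEKT4 stayed under 1 FPKM in every calf and so passed the filter through bulls alone. Of all rows tested that passed in this way, 95.0% were called. XLOC_086723 (chromosome 17, 69099098 to 69203820) spanned HORMAD2, a gene for a meiotic chromosome axis protein, and rose from at most 0.305 to 2.16, 2.03 and 2.27 FPKM, while HORMAD2 rose from at most 1.67 to 87.5, 79.9 and 75.4 FPKM. With quantile normalization the rise of this locus, 0.82 in place of 1.38, fell short of the fold asked for. The other tested loci of the list reached only assembled transcripts of their gene. XLOC_048610 beside SPO11, which encodes the enzyme that makes the meiotic double-strand breaks, rose from at most 0.171 to 2.34, 2.87 and 3.66 FPKM. XLOC_105947 beside BOLL, a germ cell RNA-binding protein gene, rose from at most 0.223 to 2.51, 3.07 and 2.90 FPKM. The called difference from BOLL (-2.07, adjusted p = 0.0495) was lost without calf 1 (adjusted p = 0.081) and without bull 1, 2 or 3 (adjusted p = 0.072 to 0.15), and also with the pseudocount of 0.1 (0.37), with quantile normalization (0.062), median-of-ratios scaling (0.052), no filter (0.060), no trend (0.0501) and the replicate block (0.11). It held without calf 3 at -1.36 (adjusted p = 0.040) and without calf 2 (adjusted p = 0.035). XLOC_179855, in the row of MSH4, a gene of crossover formation, was at 0.360, 0.273 and 10.4 FPKM in calves and 3.20, 2.60 and 3.63 FPKM in bulls, so that it was called higher only without calf 3 (1.65, adjusted p = 0.00018).

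Of the 15 spermatogonia genes present, 4 were overlapped by 9 loci, 3 of them tested. XLOC_243760 (chromosome 9, 45086077 to 45104983), with 23 LINC transcripts, lay beyond the Ensembl transcript of LIN28B, an RNA-binding protein that blocks let-7 maturation. It was at 1.08, 1.45 and 0.185 FPKM in calves and 23.7, 17.2 and 17.9 FPKM in bulls, and rose more than LIN28B, which went from 3.57, 4.51 and 0.743 FPKM to 11.0, 7.18 and 11.0 FPKM (difference 1.90 ± 0.27, adjusted p = 0.0019), also without calf 3 (adjusted p = 0.00055). XLOC_248919, which overlaps it, went from at most 0.285 FPKM to 1.01, 1.25 and 1.23 FPKM and reached the fold asked for with the pseudocount of 0.1 (2.16) but not here (0.86). XLOC_192796 (chromosome 4, 98883048 to 99100612) overlapped 2025 bases of an Ensembl transcript of STRA8, the retinoic acid response gene needed for entry into meiosis. The locus overlapped between the groups, at 4.73, 3.80 and 0.345 FPKM against 2.05, 2.93 and 3.62 FPKM, whereas STRA8 rose from at most 2.28 FPKM to 19.1, 15.7 and 16.5 FPKM, with a difference of -2.82 and, without calf 3, of -3.08. No gene of the Sertoli or Leydig cell lists, with 17 and 9 genes in the table, was overlapped.

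Host genes of the study's circRNAs, the circular RNAs made by back-splicing, were listed as well. Of 40 hosts 9 were overlapped, EPHA5, GKAP1, HGF, KMT2E, LAMA3, NECTIN3, PARD3, ST3GAL6 and ZNF292, by 13 loci, of which 5 were tested and 3 called higher in bulls, where 35.7% of all rows tested were called higher. KMT2E encodes a chromatin regulator of the trithorax family. XLOC_184134 (chromosome 4, 46152808 to 46186481) ended before the first base of its Ensembl transcripts (46202241) and overlapped only an assembled transcript of the row, named KMT2E-AS1. That locus rose from 0.103, 0.125 and 0.193 FPKM to 4.24, 4.42 and 6.55 FPKM. KMT2E-AS1 itself was at 1.28, 1.18 and 0.268 FPKM in calves and 0.702, 0.930 and 0.925 FPKM in bulls, and the KMT2E row at 22.1, 17.1 and 33.2 FPKM against 17.2, 19 and 17.2 FPKM, a row that was not called here but was called lower with quantile normalization. The difference between locus and row was 2.76 ± 0.30 (SE, adjusted p = 0.00069) and 2.55 without calf 3. XLOC_184148 (46294416 to 46541411), beyond the other end of the Ensembl transcripts, rose from 1.32, 3.26 and 1.89 FPKM to 7.68, 9.56 and 9.99 FPKM, with a difference of 2.09 ± 0.41 (adjusted p = 0.0078) and 1.80 without calf 3.

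At PARD3, a cell polarity gene, locus and gene rose alike. XLOC_051171 (chromosome 13, 18486310 to 19067121) went from 1.41, 1.89 and 2.66 FPKM to 8.54, 5.86 and 9.83 FPKM and PARD3 from 22.3, 21.1 and 29.4 FPKM to 83.4, 65.8 and 61.4 FPKM, with a difference of 0.10 ± 0.26 (adjusted p = 0.77). XLOC_009966, over NECTIN3, a gene of cell adhesion at the junctions of Sertoli cells and spermatids, was at 0.187, 0.281 and 0.806 FPKM against 1.64, 1.3 and 1.84 FPKM and was called without calf 3 (1.07, adjusted p = 0.00076) and with the pseudocount of 0.1, but not otherwise. XLOC_009434, beside the sialyltransferase gene ST3GAL6, was at 1.07, 1.22 and 1.03 FPKM in calves and 0.0806 to 0.120 FPKM in bulls, a log2 fold change of -0.93 that did not reach the fold asked for. It reached it with quantile normalization (-1.32) and with the pseudocount of 0.1 (-2.59).

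MicroRNA genes lay under 162 loci, of which 55 were tested, 25 called higher and 5 lower, or 54.5% beside 45.3% of all rows tested. The 151 microRNA rows themselves were low in this library type, with 126 at a mean under 1 FPKM and a median of 0.172 against 0.443 for the loci over them, and 59 of the rows spanned more than 200 bases. XLOC_234174 (chromosome 8, 85414661 to 85433685), joined to the row of MIRLET7A1 by an assembled transcript, was at 0, 0 and 0.0546 FPKM in calves and 29.4, 20.7 and 32.5 FPKM in bulls (log2 fold change 4.79 ± 0.22, adjusted p = 1.7e-05), while the MIRLET7A1 row stayed between 0.0706 and 0.865 FPKM. XLOC_008443 (chromosome 1, 20370870 to 20991663) spanned bta-mir-99a and MIRLET7C and overlapped bta-mir-125b-2. It was at 7.54, 7.94 and 13.6 FPKM in calves and 3.33, 4.93 and 5.04 FPKM in bulls, just under the fold asked for at -0.95, and was called lower without calf 1 or calf 2, with the pseudocount of 0.1 and with both other scalings. XLOC_223491 spanned EEF2, the gene of a translation elongation factor, with bta-mir-1434, and was at 24.4, 25.9 and 11.9 FPKM against 14.8, 14.8 and 15.0 FPKM.

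XLOC_237912 (chromosome 8, 46913398 to 47511793) spanned bta-mir-204 within TRPM3, a cation channel gene. It was at 0.209, 0.289 and 11.3 FPKM in calves and 13.2, 7.93 and 4.08 FPKM in bulls, so that the groups overlapped only through calf 3, and without it the log2 fold change was 2.79 (adjusted p = 0.0011). XLOC_136725 (chromosome 23, 27782159 to 27952779), over 2 MHC class I related genes, MIC1 and MIC2, the row BoLA and bta-mir-10167, was at 17.5, 11.6 and 1.29 FPKM in calves and 4.09, 1.36 and 6.94 FPKM in bulls. XLOC_113657 and XLOC_107387, which overlap each other around a bta-mir-2887-1 gene on chromosome 2, were at 39.4 to 233 and 53.4 to 182 FPKM in calves and 24.7 to 48.5 and 38.8 to 79.4 FPKM in bulls. These 3 loci were not called, and all 3 were called lower without calf 3 (-1.74, -2.35 and -1.27). The last 2 were also called lower with quantile normalization (-2.06 and -1.44).

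XLOC_121502 (chromosome 21, 1964407 to 2330633) began beyond SNRPN, ended inside UBE3A, the gene of a ubiquitin ligase that is imprinted in neurons, and held 101 transcripts. It was at 10.6, 15.3 and 33.5 FPKM in calves and 9.85, 14.2 and 9.48 FPKM in bulls and was not called, with calf 3 highest. With quantile normalization it was called lower (-1.20). Under it lay 14 rows of RF00108 and 6 of RF00105, the SNORD116 and SNORD115 families of small nucleolar RNAs. The RF00108 rows summed to 1.89 and 0.968 FPKM in calves 1 and 2, 21.2 in calf 3 and 1.19 to 2.21 FPKM in bulls, and all 6 RF00105 rows were highest in calf 3. Another gene inside, ENSBTAG00000052727, went the other way, from 0.0179, 0 and 1.11 FPKM to 57.1, 46.7 and 62.2 FPKM in bulls, a difference of -6.08 ± 0.33 (SE, adjusted p = 6.1e-05) that was -5.99 without calf 3.

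Calf 3 was also highest at the 2 tested loci over neural genes. Of the 26 genes of the oligodendrocyte, astrocyte and neuron list 5 were overlapped, by 7 loci, of which 2 were tested. XLOC_093746 (chromosome 18, 45966151 to 46018894), spanning the myelin glycoprotein gene MAG, was at 0.738 and 0.696 FPKM in calves 1 and 2, 26.9 in calf 3 and 7.71, 5.03 and 6.83 FPKM in bulls, while MAG was at 311 FPKM in calf 3 and under 0.5 FPKM elsewhere. XLOC_061100 over STMN2, the gene of a neuronal stathmin, was at 0.373, 0.126 and 5.15 FPKM in calves and 3.65, 3.72 and 2.84 FPKM in bulls. Neither locus was called, and without calf 3 both were called higher, at 2.11 and 1.82 (adjusted p = 0.00015 and 0.00016).

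Of the 5 loci with the highest mean level, XLOC_195281 is described above. XLOC_155856 (chromosome 27, 6219500 to 6221518) was at 4631, 11419 and 8531 FPKM in calves and 4764, 4363 and 5668 FPKM in bulls, with the groups overlapping. It lay in the rows of RF00002, a ribosomal RNA family, and of bta-mir-2887-1, in both through assembled transcripts alone. The RF00002 row went from 1415 in calf 1 to 31004 FPKM in calf 2, and the bta-mir-2887-1 row from 10311 to 271 FPKM in the same animals, so that the values of overlapping rows were spread differently in libraries of 1 group. XLOC_259205 (chromosome X, 87336071 to 87356524), between PPP1R3F and PAGE4, was at 202, 226 and 0 FPKM in calves and 217, 234 and 241 FPKM in bulls. Without calf 3, where it was listed at 0, its log2 fold change was 0.11 (adjusted p = 0.38). XLOC_254912 and XLOC_254930, which overlap on 1 unplaced scaffold, were at 90.8 to 486 and 177 to 221 FPKM in calves and 198 to 261 and 117 to 133 FPKM in bulls, and neither was called. XLOC_254912 was called higher without calf 2 (1.15 in place of 0.41, adjusted p = 0.016), and XLOC_254930 was called lower with quantile normalization (-1.25).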

How the data were processed

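Testis libraries of 3 calves and 3 bulls were compared, grouped by the labels. According to the Methods, the authors filtered out low-quality reads, then reads matching ribosomal RNA with Bowtie2, and used TopHat2 for mapping and StringTie for assembly. The deposited tables of genes and transcripts hold FPKM per library. The paper names Cuffdiff and Ballgown for circRNA levels, but which tool made these tables is not stated. The Methods name UMD 3.1.1, whereas the table uses ARS-UCD scaffold names.

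Rows with at least 1 FPKM in at least 3 of 6 libraries were tested on log2(FPKM + 1) with limma 3.58.1 (R 4.3.3, empirical Bayes trend, group as the only term, two-sided), with Benjamini-Hochberg adjustment over 18115 rows, and called where the adjusted p was under 0.05 and the log2 fold change 1 or more in size. A fold change on this scale understates the change of low rows. For each overlapping pair of rows that passed (4525 in the whole table), the within-library difference of log2 values was tested alike. Single values per library were compared by exact permutation tests over every split of the 6 libraries into 3 and 3. In simulated data with 200 rows or pairs changed 4-fold, 142 of 200 rows (8 unchanged rows called) and 132 of 200 pairs (4 called) were recovered. Named loci were the 5 largest called increases and decreases with groups apart, the 5 most abundant, the 5 largest called pair differences each way, the 5 strongest opposite pairs, and tested members over listed genes (at most 5 per list) and microRNA genes (at most 10). Members and gene lists were chosen with earlier results of these data known. No counts were used, so the depth behind a value is unknown, and p-values measure the spread between animals. Gene order came from RefSeq (ARS-UCD2.0), and sequences were not used here.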

Additional observations from a re-analysis of the deposited data

How the results depend on the processing

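With a pseudocount of 0.1 the loci called lower rose from 49 to 77, and with quantile normalization to 120. Over all rows the lower calls rose from 1741 to 2207 and 3917 under the same settings. If at least 50% of a locus had to lie in 1 gene, 3328 loci remained, of which 495 were called (466 higher, 29 lower), and 252 pairs differed (161 with the larger value in the locus, 91 in the gene); fewer loci enter by construction. With no filter on low values 2116 pairs differed (1299 and 817), over more pairs, or 26.5% beside 30.6% of all overlapping pairs. The loci's share of the summed FPKM, 0.662 points higher in bulls, turned to 0.082 points lower (-0.0819, p = 1, exact permutation test) once small RNA genes were left out of the total. At 0.1 FPKM or more, bulls had 1569 more loci on average instead of 894. The median log2 ratio of locus to gene, -1.07 over libraries, was -0.11 over all 7986 pairs above 0. Leaving out each library in turn gave 823 to 896 called loci (780 to 834 higher, 36 to 62 lower). Those were 61.0% to 66.4% of the loci tested, beside 40.4% to 51.5% of all rows. Called pairs numbered 469 to 608 (302 to 400 and 160 to 208), or 36.0% to 46.7%, beside 36.8% to 51.3% of all overlapping pairs. The same runs gave a share 0.313 to 1.03 points higher, 850 to 963 more loci and a median ratio of -1.10 to -1.01. Of the named results, 34 of 54 loci and 47 of 62 pairs kept call and direction under every alternative run; the difference of XLOC_254930 from ENSBTAG00000052369 reversed from 0.11 to -1.40 with quantile normalization, and the cause was not tested. With the replicate number as a block, 863 loci (63.9%, beside 44.9% of all rows) and 516 pairs (39.6%, beside 41.6% of all overlapping pairs) were called. The deviations of same-numbered calf and bull libraries correlated at 0.025 to 0.034, and those of the other pairings at -0.049 to 0.022. Each library correlated best with its own number. That order comes from the data only, all the values were small, and the numbers were not read as pairing the animals. The split by strand was not run, since the tables give no strand. Strand, exons, multi-mapping and depth, none of them in the tables, limit every pair: a level in a shared stretch cannot be assigned to locus or gene, 832 overlapped genes include a transcript named as antisense, and 1971 pairs of these loci overlap each other.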
